A study of Homo sapiens with 12 samples.

Results

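RNA levels of 42 genes of the actin cytoskeleton, of serum response factor (SRF) with its myocardin-related cofactors (MRTF), and of the YAP-TEAD pathway were followed in the neuroblastoma line SH-SY5Y, a human line often taken as a model of neurons. The genes were selected by name from the 60710 gene identifiers of a count table, after results of the same 12 libraries were known, so the levels and differences against DMSO below describe these libraries and support nothing beyond them. Of the 42 genes, 33 belong to the actin-MRTF-SRF axis and 9 to the YAP-TEAD axis. All 42 were matched to a row, and 40 passed a filter on low counts; MYL9, a regulatory light chain of smooth muscle and non-muscle myosin, and LATS2, a Hippo kinase, did not, with 1 to 4 reads pooled over the libraries of any group.

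The 12 libraries form 4 groups of 3, and all groups share the same line, medium and solvent. Wells with 2 mL of medium received 10 µL of DMSO carrying HPPE, zinc protoporphyrin (ZnPP) or tin protoporphyrin (SnPP) to 5 µM, and control wells received 10 µL of DMSO alone; cells were lysed after 5 h. ZnPP and SnPP are heme analogs in which another metal takes the place of iron, and the labels do not spell out HPPE. The labels do not say whether replicates came from separate cultures, so p-values measure the spread between these libraries, which may be technical.

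Monomeric actin binds the cofactors MRTFA and MRTFB and keeps them from SRF; when actin polymerizes, the cofactors reach SRF at CArG boxes, and actin, its binding proteins and focal adhesion genes are transcribed. YAP1 and WWTR1 (TAZ) are held in the cytoplasm by the Hippo kinases LATS1 and LATS2 and bind TEAD factors at GGAATG-type sites when cells spread or actin tension rises. CCN1, CCN2 and ANKRD1 are the usual readouts of YAP-TEAD, and CCN1 and ANKRD1 also answer to MRTF-SRF, so the axes overlap. In neuroblastoma lines these genes are known mainly from the adherent, mesenchymal cell state.

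CArG boxes and TEAD motifs were looked for in the promoters. RefSeq promoter windows (build GRCh38.p14, 250 bases before to 50 after each start) were found for 37 of the 42 genes, in 67 windows; ACTB, TAGLN, MYL9, TEAD1 and CCN1 had none. A CArG box on either strand lay in 11 of the 67 windows (16.4%), against 454 of 35116 windows of all genes (1.29%). It was present for 9 of the 37 genes (24.3%), namely ACTG1, ACTN1, CNN2, FBLIM1, FHL2, FLNA, SRF, TGFB1I1 and TPM4, against 1.60% of all genes. The 42 genes were selected by name as genes of these pathways, so the CArG shares here and the TEAD shares below are no test of them. A gene can have several windows, and over all genes the 35116 windows belong to 27305 genes. Windows can also overlap: chr2:105438464-105438763 and chr2:105438480-105438779 of FHL2 hold the same box. A match describes the letters in the window and no binding was measured. The stretches below are shown because their genes open the results: whole 250-base upstream parts for ACTG1 (chr17:81512800-81513049, minus strand), the actin gene with a box, and SRF (chr6:43171019-43171268, plus strand), the factor itself, and 60 bases around the box of CNN2 (chr19:1026494-1026553, plus strand), TPM4 (chr19:16067340-16067399, plus strand), FLNA (chrX:154374694-154374753, minus strand) and FBLIM1 (chr1:15758674-15758733, plus strand). Each is written 5′ to 3′ on the gene's strand, and capitals mark the CArG box.
ACTG1: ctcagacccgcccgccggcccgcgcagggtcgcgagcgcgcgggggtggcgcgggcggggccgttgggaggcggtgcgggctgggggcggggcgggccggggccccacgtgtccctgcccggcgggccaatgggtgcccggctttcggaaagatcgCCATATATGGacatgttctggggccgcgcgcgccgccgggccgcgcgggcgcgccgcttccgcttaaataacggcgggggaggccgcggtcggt
SRF: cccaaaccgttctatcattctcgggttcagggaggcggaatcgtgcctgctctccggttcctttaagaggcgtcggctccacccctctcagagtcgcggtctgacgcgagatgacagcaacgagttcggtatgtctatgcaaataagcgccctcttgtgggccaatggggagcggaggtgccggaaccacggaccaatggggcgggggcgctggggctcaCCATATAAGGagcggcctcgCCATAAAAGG
CNN2: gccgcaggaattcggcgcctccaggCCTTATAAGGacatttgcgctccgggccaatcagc
TPM4: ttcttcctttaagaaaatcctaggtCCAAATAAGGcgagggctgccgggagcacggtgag
FLNA: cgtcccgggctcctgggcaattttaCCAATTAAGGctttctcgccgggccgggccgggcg
FBLIM1: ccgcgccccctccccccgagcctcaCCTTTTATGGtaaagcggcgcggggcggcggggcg
SRF carried a pair of boxes, with first bases at -30 and -10 from the start, and ACTG1 a single box at -94.

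The TEAD motif searched was GGAATG, on both strands. It lay in 16 of the 67 windows (23.9%), each of a different gene of either axis (43.2% of 37), against 14.0% of all windows and 16.7% of all genes. CCN2 (chr6:131951373-131951622, minus strand) held 3 copies and ANKRD1 (chr10:90921088-90921337, minus strand) 2 copies; they are shown as the YAP-TEAD readouts with a window, with capitals on the motif.
CCN2: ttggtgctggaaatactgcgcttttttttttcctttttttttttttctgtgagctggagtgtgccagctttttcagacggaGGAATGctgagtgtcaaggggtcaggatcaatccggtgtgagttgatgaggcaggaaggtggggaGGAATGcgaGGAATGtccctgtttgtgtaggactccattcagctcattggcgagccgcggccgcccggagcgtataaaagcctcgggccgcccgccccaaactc
ANKRD1: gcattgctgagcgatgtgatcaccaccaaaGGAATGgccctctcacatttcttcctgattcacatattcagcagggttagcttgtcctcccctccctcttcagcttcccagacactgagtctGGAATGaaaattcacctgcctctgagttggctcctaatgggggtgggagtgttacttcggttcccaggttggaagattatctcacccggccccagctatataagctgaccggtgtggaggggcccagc
No GGAATG lay in the window of WWTR1, which says only that these letters are absent there.

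Libraries held 1337028 (ZnPP 1) to 9145399 (SnPP 2) counts, with DMSO 3 (1514595) and HPPE 3 (3141853) also shallow. Levels are given as CPM, counts scaled to an effective library of 1000000 by the TMM method, for each library in the order of its replicate number. HMOX1, a heme-responsive gene used as a check of the labels, averaged 5.90 CPM with DMSO, 351.5 with HPPE, 47.0 with ZnPP and 7.38 with SnPP. SnPP 1 and SnPP 2 stood farthest apart within a group (chi-square per degree of freedom 17.3), whereas HPPE 2 and HPPE 3 were closest (1.11); the libraries also differed in how their levels moved with transcript length (Spearman's correlation across genes -0.54 in SnPP 1 and 0.52 in SnPP 2). In bulk RNA, fewer cells of a type and less RNA per cell cannot be told apart. The counting strand is not given in the sources used here, and 20 of the 42 genes share exon sequence with a gene on the opposite strand, so antisense reads cannot be told apart for them; ACTB, ACTG1, CFL1, PFN1, MYL6, MYL12A and TPM3 also have close copies or pseudogenes that make their read assignment uncertain.

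Against DMSO, most of the genes that passed a test moved upward, with each compound. Calls are genes with an adjusted p under 0.05 in edgeR's quasi-likelihood test, Benjamini-Hochberg adjusted over 16366 genes, and "rose" or "fell" is used only for them. With HPPE, 21 of the 40 tested genes rose and 1 fell, where 2.57% of all tested genes rose and 1.47% fell. With ZnPP, 16 rose and 0 fell (all tested genes 1.84% and 0.415%), and with SnPP, 19 rose and 0 fell (1.90% and 0.379%). At an unadjusted p under 0.05, 0 genes were lower with ZnPP and 1 with SnPP. The share of all tested genes at that threshold was not computed. DESeq2 called 0 lower with either, where 0.403% and 0.279% of all genes it tested were lower. The median log2 fold change over the 40 genes was 0.44 with HPPE, 0.33 with ZnPP and 0.47 with SnPP, beside 0.02, -0.004 and 0.01 over all tested genes. These 3 comparisons share their DMSO libraries.

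**Figure D1:**
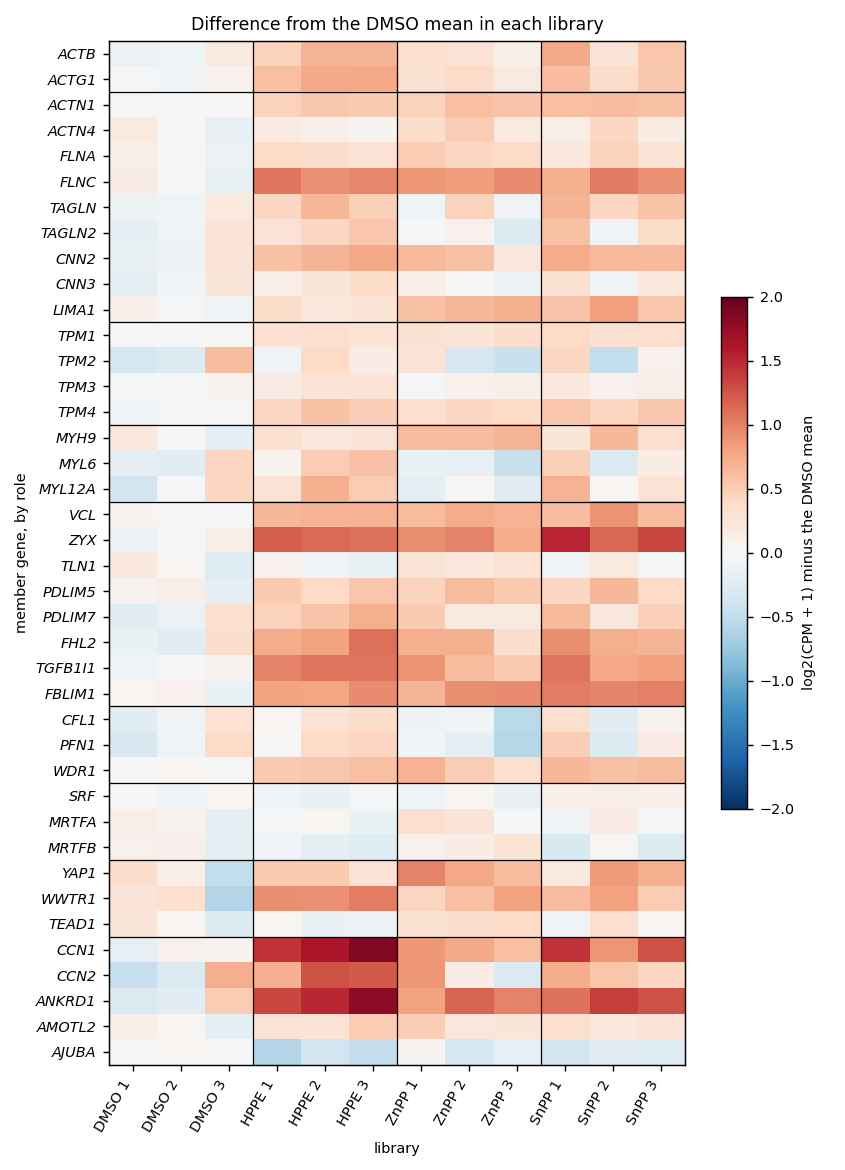
Heat map of the 40 tested genes (rows, by role) in the 12 libraries (columns); color gives log2(CPM + 1) minus the mean of the DMSO libraries, from -0.59 (blue) to 1.85 (red). Most rows of focal adhesion, actin and crosslinking genes are red in all 9 treated libraries, and the rows of SRF and its cofactors stay pale.

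The 13 genes that rose with all 3 compounds were ACTN1, ANKRD1, CCN1, CNN2, FBLIM1, FLNC, PDLIM5, TGFB1I1, TPM1, TPM4, VCL, WDR1 and ZYX. Another 7 rose with 2 compounds (ACTB, ACTG1, FHL2, FLNA, LIMA1, PDLIM7 and TAGLN) and 3 with 1 (CCN2 and WWTR1 with HPPE, MYH9 with ZnPP). AJUBA alone fell, with HPPE, and 16 were called in no comparison with DMSO. In 19 genes all 9 treated libraries lay above all DMSO libraries, which held for 2.81% of all tested genes. The whole set took 1.005% to 1.15% of a library's counts with DMSO, 1.38% to 1.51% with HPPE, 1.20% to 1.32% with ZnPP and 1.29% to 1.54% with SnPP; the DMSO range lay below all others.

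**Figure D2:**
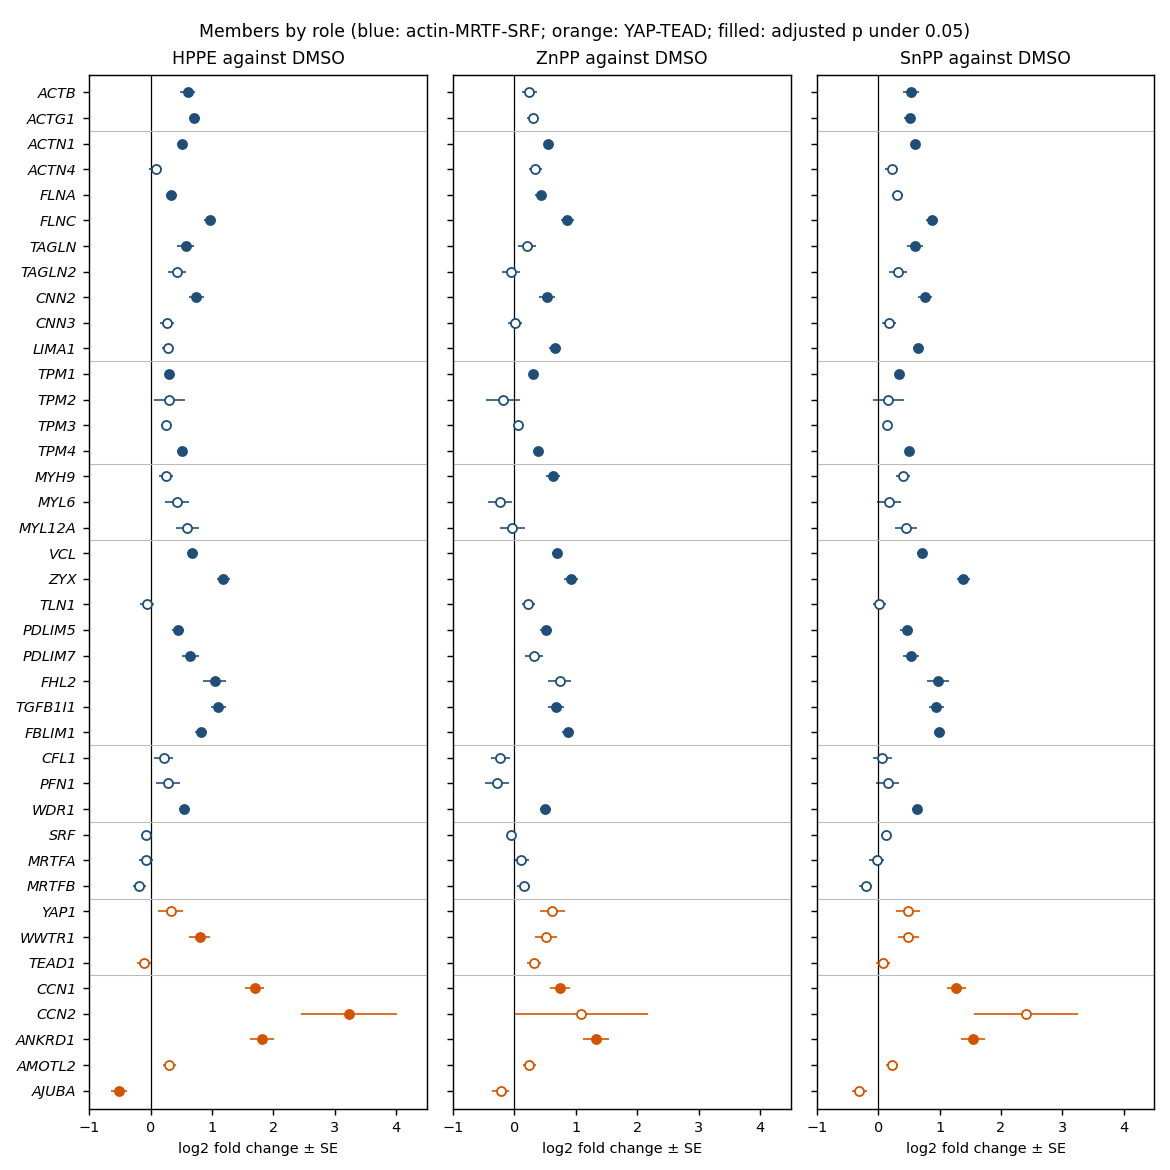
Log2 fold change against DMSO (x axis, points with SE bars) for the 40 tested genes (y axis, by role) with HPPE, ZnPP and SnPP; filled points passed the adjusted p threshold of 0.05, blue marks actin-MRTF-SRF and orange YAP-TEAD genes. CCN2, which has few reads, lies farthest right with HPPE (3.23) and SnPP (2.41, not called), and ANKRD1 does with ZnPP (1.32). ZYX, CCN1 and ANKRD1 lie far to the right with HPPE and SnPP. AJUBA is the filled point left of 0 in the HPPE panel.

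The cytoplasmic actins, which form the filaments of non-muscle cells, rose with HPPE and SnPP. ACTB (chr7:5527147-5563784, the beta-actin gene) measured 2513, 2590.5 and 3144 CPM with DMSO, 3756, 4389.5 and 4364 with HPPE, 3440.1, 3357 and 2950.4 with ZnPP, and 4629, 3272 and 4007 with SnPP. All 3 HPPE and all 3 SnPP libraries exceeded the highest DMSO library, while ZnPP 3 fell inside the DMSO range. ACTB rose 1.52-fold with HPPE (log2 fold change 0.60 ± 0.13, SE) and 1.45-fold with SnPP (0.53 ± 0.13), and ZnPP gave 0.24 ± 0.13 without a call. ACTG1 (chr17:81509971-81523847, gamma-actin), whose CArG box is printed above, measured 1438, 1419 and 1554 CPM with DMSO, 2241, 2475 and 2509 with HPPE, 1821, 1922 and 1668 with ZnPP, and 2258, 1893 and 2141 with SnPP. Its DMSO range lay below all treated libraries. ACTG1 rose by a log2 fold change of 0.71 ± 0.09 with HPPE and 0.51 ± 0.09 with SnPP, and had 0.30 ± 0.09 with ZnPP, not called. Per kilobase of exon, ACTB was the most abundant of the 42 genes with DMSO, at 781 ± 97.8 CPM per kb (SD, n = 3), and ACTG1 came next at 491 ± 24.4; the difference exceeded the SD of either. ACTB lost its call with HPPE in 5 of 23 alternative fits, among them those without DMSO 1, DMSO 2, HPPE 2 or HPPE 3 (adjusted p 0.0562 to 0.0766), and with SnPP in 11 of 23 alternative fits, among them those without DMSO 1, DMSO 2, HPPE 2, HPPE 3, ZnPP 1, ZnPP 2, SnPP 1 or SnPP 3 (adjusted p 0.0531 to 0.237). ACTG1 lost its SnPP call in 2 of 23 alternative fits, among them those without DMSO 2 (adjusted p 0.0557 to 0.103).

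Among the 9 actin-binding and crosslinking genes, 5 rose with each compound and none fell, and the log2 medians were 0.43, 0.43 and 0.60 for HPPE, ZnPP and SnPP. Of all tested genes, 2.57%, 1.84% and 1.90% rose in that order. FLNC (chr7:128830377-128859274), a filamin that crosslinks actin and is best known from muscle, measured 63.5, 56.8 and 51.0 CPM with DMSO, 121, 109 and 112 with HPPE, 105, 102 and 111 with ZnPP, and 93.9, 118 and 108 with SnPP. The highest DMSO library was well under the lowest treated library. FLNC rose 1.96-fold with HPPE (log2 0.97 ± 0.10), 1.82-fold with ZnPP (0.86 ± 0.10) and 1.83-fold with SnPP (0.87 ± 0.10). ACTN1, the non-muscle alpha-actinin that bundles filaments, measured 165, 160.4 and 160.2 CPM with DMSO, 223, 236 and 232 with HPPE, 223, 245 and 242 with ZnPP, and 247, 248 and 243 with SnPP. Treated and control libraries again did not overlap, and the DMSO libraries were close to one another. ACTN1 rose by log2 0.51 ± 0.07, 0.55 ± 0.07 and 0.60 ± 0.07 with HPPE, ZnPP and SnPP. Its paralog ACTN4 was not called with any compound, at log2 fold changes of 0.09 ± 0.11, 0.34 ± 0.11 and 0.22 ± 0.11 in the same order.

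CNN2, a calponin that stabilizes filaments, measured 23.8, 24.8 and 31.9 CPM with DMSO, 40.5, 43.1 and 45.6 with HPPE, 42.2, 40.6 and 31.3 with ZnPP, and 45.4, 42.3 and 42.4 with SnPP. Only ZnPP 3 lay inside the DMSO range. CNN2 rose by log2 0.74 ± 0.12 with HPPE, 0.53 ± 0.13 with ZnPP and 0.76 ± 0.12 with SnPP. FLNA, the widely expressed filamin, measured 1134, 1030.5 and 961 CPM with DMSO, 1368, 1324 and 1267 with HPPE, 1476, 1386 and 1354 with ZnPP, and 1204, 1415 and 1256 with SnPP. All 9 treated libraries exceeded the DMSO libraries. FLNA rose by log2 0.34 ± 0.09 with HPPE and 0.43 ± 0.09 with ZnPP, and its 0.31 ± 0.09 with SnPP was not called. TAGLN, transgelin, an actin-binding protein and classical SRF target, measured 46.6, 47.1 and 57.4 CPM with DMSO, 67.2, 80.3 and 70.3 with HPPE, 47.4, 69.5 and 47.6 with ZnPP, and 80.9, 66.8 and 75.1 with SnPP. ZnPP 1 and ZnPP 3 lay within the DMSO range, and ZnPP 2 did not. TAGLN rose by log2 0.57 ± 0.14 with HPPE and 0.60 ± 0.13 with SnPP, while ZnPP had 0.21 ± 0.14. LIMA1 (EPLIN), which crosslinks filaments and slows their turnover, measured 73.6, 66.7 and 65.1 CPM with DMSO, 88.5, 79.9 and 82.6 with HPPE, 103, 109 and 113 with ZnPP, and 102, 122 and 101 with SnPP. The 6 protoporphyrin libraries lay above all HPPE libraries, and those above all DMSO libraries. LIMA1 rose by log2 0.66 ± 0.09 with ZnPP and 0.65 ± 0.09 with SnPP, and had 0.28 ± 0.09 with HPPE, not called. TAGLN2 and CNN3 were not called against DMSO; their log2 fold changes ran from -0.05 (TAGLN2, ZnPP) to 0.43 (TAGLN2, HPPE). FLNA lost its HPPE call in 13 of 23 alternative fits, among them those without DMSO 2, DMSO 3, HPPE 1, HPPE 2, HPPE 3, ZnPP 1, ZnPP 2, ZnPP 3 or SnPP 3 (adjusted p 0.0555 to 0.189) and its ZnPP call in 5 of 23 alternative fits, among them those without DMSO 2, DMSO 3, ZnPP 1, ZnPP 2 or ZnPP 3 (adjusted p 0.0510 to 0.121); CNN2 lost its ZnPP call in 12 of 23 alternative fits, among them those without DMSO 1, DMSO 2, HPPE 1, HPPE 2, HPPE 3, ZnPP 1, ZnPP 2 or SnPP 3 (adjusted p 0.0555 to 0.201). TAGLN lost its HPPE call in 6 of 23 alternative fits, among them those without DMSO 1, DMSO 2, HPPE 2 or HPPE 3 (adjusted p 0.0573 to 0.170) and its SnPP call in 6 of 23 alternative fits, among them those without DMSO 1, DMSO 2, SnPP 1 or SnPP 3 (adjusted p 0.0506 to 0.164).

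Of the 4 tropomyosins, which coil along actin filaments, TPM1 and TPM4 rose with all 3 compounds and TPM2 and TPM3 with none. TPM4 measured 418, 441 and 441 CPM with DMSO, 579.6, 651 and 613 with HPPE, 547, 578 and 572 with ZnPP, and 636, 582 and 629 with SnPP. No treated library reached down to the DMSO range. TPM4 rose by log2 0.50 ± 0.08, 0.39 ± 0.08 and 0.51 ± 0.08 with HPPE, ZnPP and SnPP. TPM1 measured 316, 325 and 327 CPM with DMSO, 397, 409.6 and 389 with HPPE, 398, 392 and 410.5 with ZnPP, and 427, 397 and 402 with SnPP. Its groups did not overlap either, though the rise was small, at log2 0.31 ± 0.07, 0.31 ± 0.07 and 0.34 ± 0.07. TPM3 had 0.25 ± 0.08 with HPPE and TPM2 had 0.30 ± 0.26, and TPM2 varied from 15.9 to 31.9 CPM among the DMSO libraries alone. TPM1 lost its call in 7 of 23 alternative fits, among them those without DMSO 1, DMSO 2, HPPE 1, HPPE 2 or HPPE 3 (adjusted p 0.0623 to 0.152) with HPPE, in 13 of 23 alternative fits, among them those without DMSO 1, DMSO 2, HPPE 1, HPPE 2, HPPE 3, ZnPP 1, ZnPP 2, ZnPP 3 or SnPP 3 (adjusted p 0.0578 to 0.196) with ZnPP, and in 6 of 23 alternative fits, among them those without DMSO 1, DMSO 2, SnPP 1 or SnPP 3 (adjusted p 0.0572 to 0.159) with SnPP. TPM4 lost its ZnPP call in 5 of 23 alternative fits, among them those without DMSO 1, DMSO 2, ZnPP 2 or ZnPP 3 (adjusted p 0.0537 to 0.0968).

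Non-muscle myosin II moves actin filaments, and of its 3 tested genes only the heavy chain was called, with ZnPP. All 3 had positive log2 fold changes with HPPE and with SnPP, and 1 of the 3 did with ZnPP. MYH9, the heavy chain IIA, measured 794, 675 and 593 CPM with DMSO, 850.1, 799 and 814 with HPPE, 1052, 1047 and 1088 with ZnPP, and 803, 1084 and 859 with SnPP. The ZnPP libraries were the most uniform, and every treated library exceeded the DMSO libraries. MYH9 rose by log2 0.62 ± 0.11 with ZnPP; its 0.25 ± 0.11 with HPPE and 0.41 ± 0.11 with SnPP were not called. The light chain genes MYL6 and MYL12A were called with no compound, at log2 fold changes from -0.24 (MYL6, ZnPP) to 0.60 (MYL12A, HPPE). MYH9 lost its ZnPP call in 2 of 23 alternative fits, among them those without DMSO 2 or ZnPP 3 (adjusted p 0.0609 to 0.0680).

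Of the 8 focal adhesion and LIM-domain genes, 7 rose with HPPE, 5 with ZnPP and 7 with SnPP, with log2 medians of 0.75, 0.69 and 0.83. The shares of all tested genes that rose were 2.57%, 1.84% and 1.90%. ZYX (chr7:143381080-143391111), zyxin, which recruits actin-assembly factors to adhesions under tension, measured 46.8, 50.03 and 55.5 CPM with DMSO, 118, 112 and 109.6 with HPPE, 97.9, 102 and 85.5 with ZnPP, and 148, 113 and 129.6 with SnPP. The lowest treated library (ZnPP 3) still exceeded the highest DMSO library. ZYX rose 2.28-fold with HPPE (log2 1.19 ± 0.11), 1.90-fold with ZnPP (0.93 ± 0.11) and 2.62-fold with SnPP (1.39 ± 0.11). VCL (chr10:73995193-74121363), vinculin, which links talin to actin, measured 148, 139.5 and 138 CPM with DMSO, 225, 229 and 230.2 with HPPE, 221, 237 and 231 with ZnPP, and 217, 264 and 220.0 with SnPP. The groups of treated libraries overlapped with one another but not with DMSO. VCL rose by log2 0.68 ± 0.08, 0.70 ± 0.09 and 0.72 ± 0.08 with HPPE, ZnPP and SnPP. FBLIM1 (chr1:15756607-15786594), migfilin, which ties filamin to adhesions, measured 40.2, 41.6 and 35.7 CPM with DMSO, 68.9, 68.4 and 76.0 with HPPE, 63.2, 75.2 and 76.0 with ZnPP, and 80.5, 78.2 and 80.0 with SnPP. The DMSO libraries stood clear of the treated ones. FBLIM1 rose by log2 0.82 ± 0.09, 0.87 ± 0.09 and 0.99 ± 0.09 in the same order.

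TGFB1I1 (HIC5), a paxillin relative and adhesion adaptor, measured 18.1, 19.4 and 20.4 CPM with DMSO, 39.3, 41.6 and 41.8 with HPPE, 36.9, 30.4 and 28.1 with ZnPP, and 41.6, 33.6 and 34.9 with SnPP. The DMSO libraries lay below every other library, and all HPPE libraries lay above all ZnPP libraries. TGFB1I1 rose by log2 1.10 ± 0.12, 0.68 ± 0.13 and 0.95 ± 0.12 with HPPE, ZnPP and SnPP. FHL2, a LIM-only cofactor that SRF and actin signals regulate, measured 7.01, 6.47 and 10.2 CPM with DMSO, 13.6, 14.3 and 17.7 with HPPE, 13.6, 13.3 and 10.2 with ZnPP, and 15.6, 13.5 and 13.1 with SnPP. ZnPP 3 and DMSO 3 were nearly level, at 10.2 CPM each. FHL2 rose by log2 1.04 ± 0.18 with HPPE and 0.97 ± 0.18 with SnPP, and its 0.74 ± 0.19 with ZnPP was not called. PDLIM5, a PDZ-LIM scaffold that binds alpha-actinin, measured 58.9, 60.6 and 48.5 CPM with DMSO, 80.8, 73.4 and 82.0 with HPPE, 76.0, 87.1 and 80.8 with ZnPP, and 74.4, 89.0 and 73.8 with SnPP. It did not overlap with DMSO in any group and rose by log2 0.45 ± 0.10, 0.52 ± 0.10 and 0.46 ± 0.10. PDLIM7, a related scaffold, measured 36.0, 38.1 and 52.3 CPM with DMSO, 57.7, 62.6 and 69.0 with HPPE, 60.2, 47.8 and 47.5 with ZnPP, and 66.0, 48.7 and 58.4 with SnPP. DMSO 3 overlapped with ZnPP and SnPP but not with HPPE. PDLIM7 rose by log2 0.65 ± 0.14 with HPPE and 0.53 ± 0.14 with SnPP, and had 0.32 ± 0.14 with ZnPP. TLN1, talin, which couples integrins to actin, was not called with any compound, at -0.06 ± 0.11, 0.23 ± 0.11 and 0.02 ± 0.11.

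The calls in this role that depended on single libraries were those of PDLIM5, PDLIM7, FHL2 and TGFB1I1. PDLIM5 lost its call in 3 of 23 alternative fits, among them those without DMSO 1, HPPE 1 or HPPE 3 (adjusted p 0.0637 to 0.0670) with HPPE, in 3 of 23 alternative fits, among them those without DMSO 2, ZnPP 2 or ZnPP 3 (adjusted p 0.0517 to 0.0703) with ZnPP, and in 3 of 23 alternative fits, among them those without DMSO 1 or DMSO 2 (adjusted p 0.0569 to 0.126) with SnPP. PDLIM7 lost its HPPE call in 4 of 23 alternative fits, among them those without DMSO 1, DMSO 2, HPPE 2 or HPPE 3 (adjusted p 0.0527 to 0.111) and its SnPP call in 16 of 23 alternative fits, among them those without DMSO 1, DMSO 2, HPPE 1, HPPE 2, HPPE 3, ZnPP 1, ZnPP 2, ZnPP 3, SnPP 1 or SnPP 3 (adjusted p 0.0522 to 0.294). FHL2 lost its SnPP call in 2 of 23 alternative fits, among them those without DMSO 1 or DMSO 2 (adjusted p 0.0550 to 0.0917), and TGFB1I1 its ZnPP call in 2 of 23 alternative fits, among them those without DMSO 1 or DMSO 2 (adjusted p 0.0549 to 0.0678). ZYX, VCL and FBLIM1 kept their calls with all 3 compounds in all 23 alternatives, as did ACTN1, FLNC, WDR1 and ANKRD1.

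Of the 3 actin turnover genes, WDR1 rose with each compound, and CFL1 (cofilin, which severs filaments) and PFN1 (profilin, which feeds monomers to growing ends) were not called. WDR1 (AIP1), which helps cofilin to disassemble filaments, measured 145, 149.5 and 144 CPM with DMSO, 209.6, 212 and 222 with HPPE, 238, 209 and 184 with ZnPP, and 232, 220.4 and 227 with SnPP. The DMSO libraries agreed closely and lay below every treated library. WDR1 rose by log2 0.55 ± 0.09, 0.50 ± 0.09 and 0.63 ± 0.09 with HPPE, ZnPP and SnPP. CFL1 ranged from -0.23 ± 0.16 with ZnPP to 0.21 ± 0.15 with HPPE, and PFN1 from -0.28 ± 0.20 to 0.29 ± 0.19, each with overlap of DMSO with every treated group. All HPPE libraries lay above all ZnPP libraries in both genes, and neither difference was called.

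**Figure D3:**
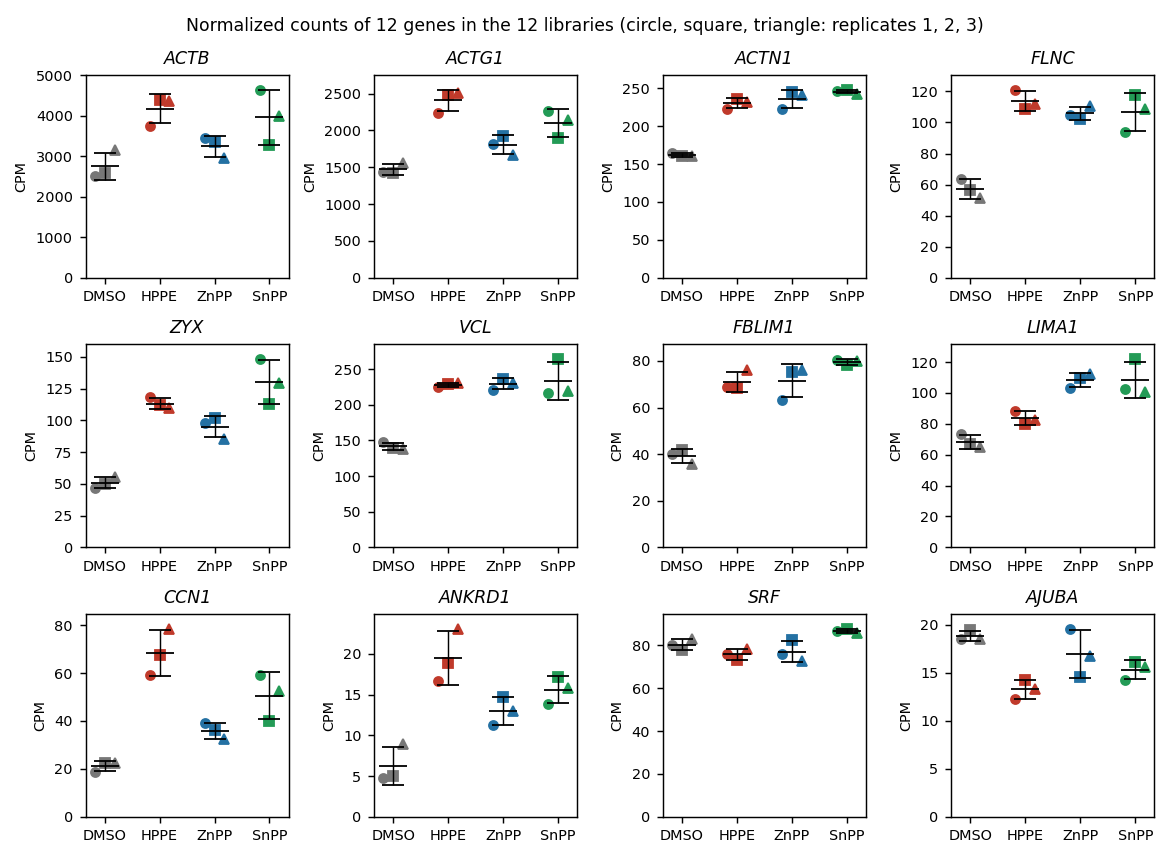
CPM of 12 genes in every library (y axis from 0; circle, square and triangle mark replicates 1, 2 and 3; bars give mean ± SD, n = 3) with DMSO, HPPE, ZnPP and SnPP. ACTN1, FLNC, ZYX, VCL, FBLIM1, CCN1 and ANKRD1 show no overlap of treated with DMSO libraries, LIMA1 is highest with ZnPP and SnPP, SRF stays between 72.9 and 87.9 CPM, and AJUBA is lowest with HPPE.

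The transcripts of the SRF complex itself were not called against DMSO. SRF measured 80.4, 77.7 and 83.0 CPM with DMSO, 76.2, 73.3 and 78.2 with HPPE, 76.0, 82.4 and 72.9 with ZnPP, and 86.7, 87.9 and 85.9 with SnPP. Its HPPE and ZnPP ranges overlapped with DMSO, and the SnPP libraries lay slightly above. The log2 fold changes of SRF were -0.08 ± 0.08, -0.05 ± 0.08 and 0.12 ± 0.07 with HPPE, ZnPP and SnPP, with 95% intervals of -0.24 to 0.08, -0.21 to 0.12 and -0.04 to 0.28. MRTFA, the cofactor that G-actin retains, measured 34.8, 33.1 and 27.4 CPM with DMSO, 31.3, 32.6 and 28.8 with HPPE, 39.9, 38.1 and 31.2 with ZnPP, and 30.2, 35.7 and 30.6 with SnPP. All 4 ranges overlapped, and its log2 fold changes were -0.07 ± 0.12, 0.11 ± 0.12 and -0.03 ± 0.12. MRTFB, its paralog, measured 129.9, 131 and 107 CPM with DMSO, 118, 107 and 103 with HPPE, 130.3, 135 and 147 with ZnPP, and 98.7, 125 and 101 with SnPP. The ZnPP libraries lay above all HPPE and SnPP libraries, and DMSO 3 fell among the latter. MRTFB had log2 fold changes of -0.18 ± 0.10, 0.15 ± 0.10 and -0.21 ± 0.10 against DMSO. The location of the MRTF proteins in the cell was not measured.

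Of the YAP-TEAD factors, WWTR1 rose with HPPE and no other change was called. WWTR1 (TAZ), a coactivator of TEAD, measured 9.92, 10.6 and 5.10 CPM with DMSO, 16.4, 16.2 and 17.7 with HPPE, 11.3, 13.0 and 15.0 with ZnPP, and 13.1, 15.1 and 11.97 with SnPP. All treated libraries exceeded the DMSO libraries, and DMSO 3 was the lowest of the 12. WWTR1 rose 1.74-fold with HPPE (log2 0.80 ± 0.17), with 0.52 ± 0.18 for ZnPP and 0.49 ± 0.17 for SnPP, not called. YAP1, its paralog, measured 12.3, 10.4 and 6.38 CPM with DMSO, 13.9, 14.0 and 11.7 with HPPE, 19.6, 16.7 and 15.0 with ZnPP, and 10.9, 17.8 and 16.1 with SnPP. Again DMSO 3 was lowest, and only the ZnPP libraries stood clear of DMSO. YAP1 had log2 fold changes of 0.33 ± 0.20, 0.62 ± 0.21 and 0.48 ± 0.19 with HPPE, ZnPP and SnPP, none called. TEAD1, the DNA-binding partner, measured 327, 287 and 228 CPM with DMSO, 286, 252 and 255 with HPPE, 343, 353 and 366 with ZnPP, and 264, 348 and 286 with SnPP. ZnPP lay above DMSO in every library, and HPPE within the DMSO range. TEAD1 had -0.10 ± 0.12, 0.32 ± 0.12 and 0.08 ± 0.12 in the same order. WWTR1 lost its HPPE call in 2 of 23 alternative fits, among them those without DMSO 1 or HPPE 2 (adjusted p 0.0529 to 0.0561).

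Of the 5 tested YAP-TEAD targets and feedback genes, CCN1, CCN2 and ANKRD1 rose and AJUBA fell with HPPE. CCN1 (chr1:85580761-85583962; CYR61), a secreted matricellular protein, measured 18.7, 22.6 and 22.3 CPM with DMSO, 59.3, 67.6 and 78.5 with HPPE, 39.2, 36.2 and 32.5 with ZnPP, and 59.2, 39.9 and 52.3 with SnPP. The DMSO libraries were lowest, the ZnPP libraries next, then SnPP, and the HPPE libraries highest, with SnPP 1 just under HPPE 1. CCN1 rose 3.24-fold with HPPE (log2 1.69 ± 0.15), 1.68-fold with ZnPP (0.75 ± 0.16) and 2.41-fold with SnPP (1.27 ± 0.15). ANKRD1 (chr10:90912096-90921276; CARP), a nuclear and sarcomeric ankyrin-repeat protein with 2 TEAD motifs in the printed promoter, measured 4.76, 5.02 and 8.93 CPM with DMSO, 16.6, 18.9 and 23.1 with HPPE, 11.3, 14.7 and 13.0 with ZnPP, and 13.8, 17.2 and 15.9 with SnPP. Treated libraries lay above DMSO throughout, and HPPE and ZnPP did not overlap. ANKRD1 rose 3.53-fold with HPPE (log2 1.82 ± 0.20), 2.504-fold with ZnPP (1.32 ± 0.21) and 2.90-fold with SnPP (1.54 ± 0.20). CCN1 lost its ZnPP call in 6 of 23 alternative fits, among them those without DMSO 1, DMSO 2, ZnPP 1, ZnPP 2 or ZnPP 3 (adjusted p 0.0529 to 0.0920).

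CCN2 (CTGF), the other classical target, with 3 TEAD motifs in the printed promoter, was close to the limit of detection. It had 3 reads pooled over the DMSO libraries, 37 over HPPE, 7 over ZnPP and 26 over SnPP. By library, CCN2 measured 0, 0.132 and 1.28 CPM with DMSO, 1.25, 2.33 and 2.22 with HPPE, 1.51, 0.523 and 0.120 with ZnPP, and 1.29, 1.01 and 0.835 with SnPP. DMSO 3, a shallow library, overlapped with HPPE 1 and with all other treated groups. The pooled ratio to DMSO was 10.4 with HPPE (95% interval 3.30 to 52.9, exact conditional, covering counting error only), 2.25 with ZnPP (0.515 to 13.5) and 5.88 with SnPP (1.80 to 30.4). CCN2 was called higher with HPPE only; its fitted log2 fold change depends on the prior count, and it fell from 3.23 to 2.41 without DMSO 1, where the adjusted p was 0.212. The HPPE call was lost in 6 of 22 alternative fits, among them those without DMSO 1, DMSO 2, HPPE 2 or HPPE 3 (adjusted p 0.0573 to 0.212); DESeq2 gave no adjusted p.

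AJUBA, a LIM protein that restrains the LATS kinases, measured 18.5, 19.4 and 18.5 CPM with DMSO, 12.3, 14.2 and 13.3 with HPPE, 19.6, 14.5 and 16.7 with ZnPP, and 14.2, 16.1 and 15.6 with SnPP. The HPPE libraries lay below all DMSO libraries. AJUBA fell with HPPE (-0.51 ± 0.13 on the log2 scale), and had -0.22 ± 0.13 with ZnPP and -0.31 ± 0.13 with SnPP. The call was lost in 11 of 23 alternative fits, among them those without DMSO 1, DMSO 2, HPPE 1, HPPE 2, HPPE 3 or SnPP 3 (adjusted p 0.0565 to 0.192). AMOTL2, an angiomotin that binds YAP1 and is itself a target, was not called, at 0.31 ± 0.10, 0.24 ± 0.11 and 0.23 ± 0.10, although no treated library reached the DMSO range.

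Counts for the 2 axes are set side by side here. With HPPE, 17 of 32 actin-MRTF-SRF genes rose and none fell, and 4 of 8 YAP-TEAD genes rose and 1 fell. With ZnPP the counts were 14 of 32 and 2 of 8 higher, and with SnPP 17 of 32 and 2 of 8. Over all tested genes, 2.57% rose and 1.47% fell with HPPE, 1.84% and 0.415% with ZnPP, and 1.90% and 0.379% with SnPP. The log2 medians were 0.44, 0.32 and 0.46 for the actin-MRTF-SRF genes with HPPE, ZnPP and SnPP, and 0.33, 0.52 and 0.48 for the 7 YAP-TEAD genes other than CCN2. With CCN2 at its fitted values the YAP-TEAD medians were 0.57, 0.57 and 0.49. No test compared the axes.

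Between compounds, the clearest difference was CCN1, which was higher with HPPE than with ZnPP. HPPE exceeded ZnPP in 7 of the 40 genes and was lower in 4, where 6.44% and 6.26% of all tested genes were called. CCN1 differed by log2 0.94 ± 0.14 (95% interval 0.64 to 1.25; adjusted p = 0.00124, edgeR) and kept this call in all 23 alternatives. ACTG1 (log2 0.42 ± 0.09) and TGFB1I1 (0.42 ± 0.11) were also higher with HPPE, without overlap of libraries. The light chains MYL6 (0.67 ± 0.19) and MYL12A (0.63 ± 0.19), TAGLN2 (0.49 ± 0.15) and CCN2 were the other genes higher with HPPE. The fitted difference of CCN2, which has few reads, went from log2 2.14 to 1.44 without ZnPP 3 (adjusted p 0.285, edgeR). LIMA1 (-0.38 ± 0.09), TEAD1 (-0.42 ± 0.12), MYH9 (-0.37 ± 0.11) and MRTFB (-0.33 ± 0.10) were lower with HPPE than with ZnPP. Other than CCN1, none of these 11 calls held in every alternative, and all 10 were lost when ZnPP 3, HPPE 2 or HPPE 3 was left out in turn. ACTG1 then had adjusted p of 0.109, 0.0868 and 0.0693, and LIMA1 of 0.115, 0.105 and 0.0661. Calls over all tested genes shrank in the same fits. The 6.44% higher and 6.26% lower became 0.596% and 0.435% without ZnPP 3. They became 0.643% and 0.460% without HPPE 2, and 1.14% and 0.887% without HPPE 3.

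HPPE and SnPP differed in 1 gene: LIMA1 was lower with HPPE (log2 -0.37 ± 0.09, interval -0.55 to -0.19, adjusted p = 0.0370, edgeR), against 0.709% of all tested genes lower and 0.745% higher. That call was lost in 11 of 23 alternative fits, among them those without DMSO 2, HPPE 1, HPPE 2, HPPE 3, ZnPP 1, ZnPP 2, SnPP 2 or SnPP 3 (adjusted p 0.0530 to 0.283). No gene was higher by edgeR or by DESeq2. At an unadjusted p under 0.05, 2 were higher, and the share of all tested genes at that threshold was not computed. The interval of the HPPE minus SnPP difference was -0.40 to 0.00 for ZYX, -0.21 to 0.14 for VCL, -0.19 to 0.33 for ACTB and 0.15 to 0.70 for CCN1.

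ZnPP and SnPP, which carry different metals, differed in none of the 40 genes by edgeR or DESeq2. Of all tested genes, edgeR called 1 of 16366 (0.00611%) higher with ZnPP and 0 lower (0%). At an unadjusted p under 0.05, 1 gene was higher with ZnPP (MRTFB, 0.36 ± 0.10) and 11 were lower. The share of all tested genes at that threshold was not computed. Every adjusted p of the 40 genes was at least 0.353 (edgeR). The missing calls do not show that the compounds act alike, and the intervals here are not adjusted for the number of genes. The 95% interval of ZnPP minus SnPP was -0.67 to -0.25 for ZYX and -0.82 to -0.22 for CCN1. In both genes every ZnPP library lay below every SnPP library. Ranges did not overlap, in either direction, in 9 of the 40 genes. The share over all tested genes was not computed, so this count is not read as a property of these genes. The longest transcripts of ZYX and CCN1 have 2493 and 2290 nucleotides, and length is taken up below. For VCL the interval was -0.20 to 0.15 and for FLNC -0.21 to 0.19. Without SnPP 2, 3 of the genes were higher and 6 lower, where 777 and 676 of 16909 tested genes were then called.

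Transcript length moved with the differences between compounds. Over the 40 genes, which share libraries and depth, Spearman's correlation of the log2 fold change with the longest transcript's length was -0.75 for HPPE against ZnPP and 0.80 for ZnPP against SnPP, and -0.45 for HPPE against SnPP. It was weaker against DMSO, at -0.20 with HPPE, 0.37 with ZnPP and -0.09 with SnPP. MYL6, MYL12A and PFN1, with short transcripts, were on the HPPE side, and MYH9, TEAD1 and MRTFB, with long ones, on the ZnPP side. With a trend on length and GC content removed, MRTFB had a log2 difference of -0.11 between HPPE and ZnPP (adjusted p 0.207) and MYL12A 0.30 (0.0661). Of the 11 calls, 3 were lost there and 8 kept, among them MYL6 (0.38, adjusted p 0.0388), MYH9 (-0.21, 0.0420) and TEAD1 (-0.23, 0.00841). The correlations were -0.39 and 0.53 for HPPE against ZnPP and for ZnPP against SnPP, and -0.74 and 0.79 with a term for the axis of library differences in place of the trend. The part of length in these calls was not tested further.

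**Figure D4:**
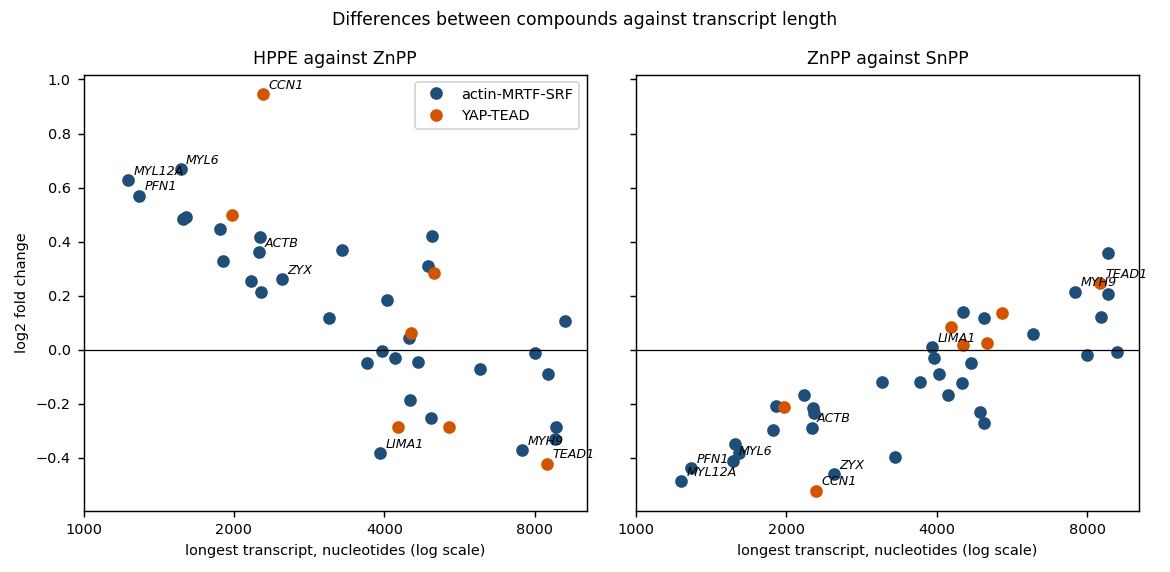
Log2 fold change (y axis) of 39 tested genes against the length of the longest transcript (x axis, nucleotides, log scale) for HPPE against ZnPP (left) and ZnPP against SnPP (right); CCN2 is left out, and blue and orange mark the axes. Short transcripts such as MYL12A and PFN1 lie above 0 on the left and below 0 on the right, and long ones such as TEAD1 and MYH9 the reverse.

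Further genes of the pathways, from lists that are not part of the 42, were examined in the same fit. These lists, and the marker and immediate early lists below, were chosen with earlier results of these data known. Their counts describe these libraries and support nothing beyond them. The counts stand beside shares over all tested genes of 2.57% higher and 1.47% lower with HPPE, 1.84% and 0.415% with ZnPP and 1.90% and 0.379% with SnPP. Of 52 tested further actin and MRTF-SRF genes, 8 rose and 1 fell with HPPE, 8 rose with ZnPP and 8 with SnPP, with log2 medians of 0.22, 0.16 and 0.22. TNS1, tensin, which anchors actin at adhesions, rose from 112.0 ± 15.6 CPM (SD, n = 3) with DMSO to 195 ± 11.9 with HPPE, 214 ± 11.6 with ZnPP and 212 ± 34.6 with SnPP. FERMT2, kindlin-2, an activator of integrins, rose by log2 0.54 ± 0.08, 0.54 ± 0.08 and 0.58 ± 0.08 in that order. MICAL2, an enzyme that oxidizes actin and promotes MRTF-SRF signalling, rose by 1.21 ± 0.15 with ZnPP and 1.13 ± 0.14 with SnPP, and CSRP1, a LIM protein, by 0.82 ± 0.10 with HPPE and 0.65 ± 0.10 with SnPP. TNS3 fell with HPPE, at -0.59 ± 0.10.

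Of 18 tested other YAP-TEAD targets, 2 rose and 2 fell with HPPE, 1 rose with ZnPP and 4 rose with SnPP, with medians of 0.08, 0.20 and 0.33. TGFB2, a secreted growth factor, fell with HPPE (-0.48 ± 0.11) and rose with ZnPP (0.53 ± 0.11) and SnPP (0.59 ± 0.10). GADD45A, a stress-inducible gene, rose with HPPE (0.93 ± 0.15), and F3, tissue factor, did too (1.297 ± 0.32). F3 has few reads, with means of 1.39 CPM with DMSO and 3.58 with HPPE, where 3 counts equal 1.98 CPM in DMSO 3. NT5E, CRIM1 and NUAK2 rose with SnPP (0.97 ± 0.19, 0.59 ± 0.13 and 1.09 ± 0.26). Of 25 tested Hippo pathway genes, 1 fell with HPPE, 1 rose with ZnPP, and 1 rose and 1 fell with SnPP, so that no direction held more than 1 call. AMOT, an angiomotin, fell with HPPE (-0.65 ± 0.14) and SnPP (-0.55 ± 0.14), and FRMD6, an upstream FERM protein, rose with ZnPP (0.56 ± 0.10) and SnPP (0.61 ± 0.10); the medians were -0.11, 0.05 and -0.05.

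Markers of cell state moved beside these genes. The 12 noradrenergic neuroblastoma markers summed to 5403 to 5674 CPM with DMSO, 5088 to 5116 with HPPE, 4708 to 5218 with ZnPP and 5068 to 5239 with SnPP; TH was under 1 CPM in every library. The 12 mesenchymal neuroblastoma markers summed to 1237 to 1394 CPM with DMSO, 1398 to 1437 with HPPE, 1301 to 1461 with ZnPP and 1443 to 1548 with SnPP. Of the 10 tested, 4 rose with HPPE (FOSL1, CD44, FOSL2 and SNAI2), 2 rose and COL3A1 fell with ZnPP, and 3 rose with SnPP, while PRRX1 and IFI16 stayed under 1 CPM. Smooth muscle markers summed to 30.6 to 35.1 CPM with DMSO, 33.2 to 35.3 with HPPE, 40.9 to 42.9 with ZnPP and 40.0 to 47.5 with SnPP, of which CNN1 rose with HPPE and SnPP. CNN1 has few reads, with means of 1.22 CPM with DMSO, 3.57 with HPPE and 3.60 with SnPP. The 5 fibroblast markers summed to 261 to 292 CPM with DMSO, 308 to 326 with HPPE, 269 to 296 with ZnPP and 291 to 312 with SnPP. PDGFRB rose with HPPE, COL1A2 and DCN rose and PDGFRA fell with ZnPP, and COL1A2, DCN and PDGFRB rose and PDGFRA fell with SnPP. The 4 skeletal muscle markers were under 1 CPM everywhere. The part of these markers in the rise of the actin and YAP-TEAD genes was not tested.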

How the data were processed

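The deposited table holds raw counts of reads per gene, made by the authors; the submitters' processing notes name fastp 0.21.1, STAR 2.7.7a, featureCounts and GRCh38, and the annotation and strand setting are not given in the sources used here. Of 60710 gene identifiers, 60437 matched a symbol. No column lay outside the 12 samples.

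Genes were filtered with filterByExpr by group, leaving 16366 with 99.6% of the counts. A single model of 4 group means covered all 12 libraries in edgeR 4.0.16 (R 4.3.3) with TMM scaling, glmQLFit with robust estimation and two-sided glmQLFTest; p-values were Benjamini-Hochberg adjusted over all genes, and a gene was called under 0.05. The biological coefficient of variation was 0.0913. SE comes from the F statistic, and intervals are 95% and not adjusted for the number of genes. Genes in full were those called against DMSO plus 11 regulators, actins and targets named in the rule; of other lists, at most 4 called genes per comparison were named, by smallest adjusted p. The members and lists were chosen with earlier results of these data known. Total counts set the precision, and 3 reads served as the floor. The floor and the interval of the pooled CCN2 ratio cover counting error only. The intervals of log2 fold changes come from the fit and include the spread between libraries.

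Alternatives were no filter, 1 CPM in 3 libraries, RLE scaling, no scaling, DESeq2 1.42.0, compared groups only, non-robust estimation, a replicate block, a library axis term, removal of a length and GC trend (16185 genes with a length, from GENCODE), HPPE 2 and HPPE 3 summed, and each library left out (23 in all). The scripts were tested on simulated data. Same-numbered libraries did not deviate together, so numbers were not taken as pairs. Some genes of the lists are not reported here.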

Additional observations from a re-analysis of the deposited data

How the results depend on the processing

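Counts of called members moved by over 1.5 times as follows. For HPPE against DMSO, the 21 higher calls stayed between 14 and 23 with a library left out, and the 1 lower call was 0 with no filter, unscaled libraries, DESeq2, the replicate block or HPPE 2 and HPPE 3 summed (0 to 1 with a library left out). For ZnPP against DMSO, 16 higher became 26 with a term for the axis of library differences and 8 to 19 with a library left out (8 without DMSO 2, 10 without ZnPP 2 and 10 without ZnPP 3); 0 lower became 3 with the axis. For SnPP against DMSO, 19 higher became 12 to 20 (12 without DMSO 2), and 0 lower became 1 with the axis and 0 to 1 with a library left out. For HPPE against ZnPP, 7 higher became 13 with no filter, 16 with compared groups only, 2 with the replicate block, 17 with the axis, 1 with HPPE 2 and 3 summed and 1 to 12 with a library left out; 4 lower became 1 with the block, 0 with the summed libraries and 0 to 5. For HPPE against SnPP, 0 higher became 1 with no filter, 5 with the axis, 2 with the length and GC trend removed and 0 to 1; 1 lower became 0 with compared groups only, the block or the summed libraries, 6 with the axis and 0 to 1. For ZnPP against SnPP, 0 higher became 4 with the axis and 0 to 3, and 0 lower became 6 with no filter, 13 with the axis and 0 to 6 (3 and 6 without SnPP 2). Calls over all tested genes moved under the same settings. For ZnPP against DMSO, 1.84% higher and 0.415% lower became 13.7% and 11.7% with the axis, and 0.417% and 0.00588% without DMSO 2. The share higher was 1.11% without ZnPP 2 and 0.501% without ZnPP 3. For HPPE against ZnPP, 6.44% higher became 4.62% with no filter (of 38574 genes), 14.3% with compared groups only, 2.38% with the block, 18.4% with the axis and 1.49% with the summed libraries. With a library left out it ran from 0.596% (without ZnPP 3) to 10.6% (without SnPP 2). The 6.26% lower became 2.25% with the block and 1.22% with the summed libraries. It ran from 0.435% (without ZnPP 3) to 10.2% (without SnPP 2). For HPPE against SnPP, 0.745% higher and 0.709% lower became 8.29% and 7.56% with the axis. The 0.745% higher became 0.428% with no filter and 1.36% with the length and GC trend removed. The 0.709% lower became 0.355% with compared groups only, 0.373% with the block and 0.290% with the summed libraries. For ZnPP against SnPP, 0.00611% higher and 0% lower became 7.46% and 6.90% with the axis, 0.181% and 0.518% with no filter, and 777 and 676 of 16909 genes without SnPP 2. The cause was not tested. No named gene changed sign where called.

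Of the calls, 13 of 22 with HPPE, 8 of 16 with ZnPP and 12 of 19 with SnPP were kept in every alternative. Same-numbered libraries had correlations of deviations from -0.37 to 0.27, so the block joins libraries that share only a number. ZnPP 1 and DMSO 3 limit genes of few reads most: 3 counts equal 2.24 and 1.98 CPM there, and CCN2, MYL9 and LATS2 lie at or under it.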

Other observations

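A list of immediate early genes, many of which SRF controls with ternary complex factors rather than with MRTF, was examined beside the actin genes. It also holds the ternary complex factors ELK1, ELK3 and ELK4 themselves. Of 16 tested, 7 rose with HPPE, 1 with ZnPP and 3 with SnPP, and 0 fell, with log2 medians of 0.43, 0.20 and 0.30. The 1 call with ZnPP was ELK3, so no immediate early gene was called with ZnPP. Of all tested genes, 2.57%, 1.84% and 1.90% rose and 1.47%, 0.415% and 0.379% fell. EGR1, a growth-factor-responsive zinc finger factor, rose from 15.6 ± 3.72 CPM (SD, n = 3) with DMSO to 41.9 ± 0.783 with HPPE and 26.2 ± 1.99 with SnPP (log2 1.32 ± 0.14 and 0.64 ± 0.14, SE). DUSP1, a MAP kinase phosphatase, rose by log2 0.94 ± 0.16 with HPPE and 0.75 ± 0.16 with SnPP. ZFP36, which promotes decay of AU-rich mRNAs, rose by 1.39 ± 0.25 with HPPE. ELK3, a ternary complex factor, rose by 0.35 ± 0.07, 0.31 ± 0.08 and 0.33 ± 0.07 with HPPE, ZnPP and SnPP.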
